A study of Mus musculus with 50 samples.

Results

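The 10 genes described here build and remodel the neuronal cytoskeleton and the growing axon: the neurofilament genes *Nefl*, *Nefm* and *Nefh*, the microtubule-associated protein genes *Map2* and *Mapt*, the tubulin genes *Tubb3* and *Tubb2b*, the immature neuron gene *Dcx*, and the axon growth genes *Stmn2* and *Gap43*. They were taken by symbol, with gene identifiers matched to symbols through GENCODE vM21, from the 55487 genes counted, and all 10 were among the 16330 protein-coding genes tested. Poly-A RNA of mouse frontal cortex had been sequenced in 50 libraries, with 5 wild-type (WT) and 5 *Setd1a*+/- (Het) animals at every age, namely embryonic days 14 and 18 (E14, E18) and postnatal days 7, 35 and 70 (P7, P35, P70). Het mice carried 1 copy of a tm1d loss-of-function allele, made by a knockout-first design, of *Setd1a*, which encodes a histone H3 lysine methyltransferase. All mice were described as male offspring of heterozygous males and wild-type females. The labels give the strain as C57BL/6NTac and the methods a mixed C57BL/6NTac and C57BL/6J background, and the methods put both embryonic stages slightly later than the labels, whose ages are used here. Embryonic samples were frontal brain regions and postnatal samples bilateral frontal cortex, so tissue sampling and age changed together between E18 and P7. The question was how the members change with age, and whether Het mice differ from WT mice at any age.

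Neurofilaments are the intermediate filaments of mature axons, made of light (*Nefl*), medium (*Nefm*) and heavy (*Nefh*) chains that set axon calibre. Microtubules, polymers of alpha- and beta-tubulin, are stabilized by tau (*Mapt*), mainly in axons, and by MAP2 (*Map2*), mainly in dendrites. Doublecortin (*Dcx*) binds microtubules in migrating immature neurons. Stathmin 2 (*Stmn2*) destabilizes microtubules in growth cones, and GAP-43 (*Gap43*) is a membrane-bound growth cone protein. These genes are widely used as markers of the stage that cortical neurons have reached.

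Libraries held 35507165 to 43907318 counts assigned to genes, and the members had between 57 counts (*Nefh*) and 144308 counts (*Tubb2b*) in a library, so the spread between mice, not counting error, limited most values. Levels are given as CPM, counts scaled to library size with TMM factors, and as RPKM, CPM per kilobase of annotated exon. Among the libraries, 3 were set apart, 2 by *Xist* and 1 by regional markers at P7, and are called here the 3 that stand apart. Although all mice were described as male, E14 WT replicate 5 and E18 WT replicate 2 held 55644 to 60159 counts of *Xist*, against at most 27 in the other 48. Their summed counts of 4 Y-linked genes were at most 11, against at least 4711 in the other 48. By these counts both libraries are female, so sex differs within the WT groups of E14 and E18 but not within the Het groups. The third, P7 WT replicate 2, held markers of other brain regions, given with the P7 results. No E18 library was set apart by regional markers, although these varied between E18 WT libraries too. There the frontal cortex list ran from 1127 to 1981 CPM (Het 1476 to 2133 CPM), and the choroid plexus list is given with the E14 and E18 genotype results. By the SD over genes of the log2 deviation from the group, P7 WT replicate 2 (0.55) came first, but E14 Het replicate 2 (0.483) and E18 WT replicate 5 (0.426) lay above E14 WT replicate 5 (0.423) and E18 WT replicate 2 (0.328). *Setd1a* itself was not lower in Het libraries, at 76.4 to 150 CPM against 70.2 to 137 CPM in WT (log2 fold change 0.10, SE 0.0251, adjusted p = 0.00679). Exons of other genes cover 52.3% of its exon bases, and counts over all its exons cannot show the loss of part of the gene, so they check no label. The cortical neuron markers *Emx1*, *Tbr1*, *Neurod6* and *Slc17a7* together summed to 531 CPM in P7 WT replicate 2 and to 611.2 to 2320 CPM in the other libraries. No label says which littermates shared a litter, and p-values rest on 1 spread for each gene, estimated between mice of the same group over all 50 libraries, so that a library of one age also bears on the tests of another.

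Per length, the members' order of levels was not fixed across age. At E14 in WT mice, *Tubb2b* (mean 1105 RPKM, SD 161) and *Tubb3* (749.2 RPKM, SD 112) stood above the rest, and the 5-library ranges of the next 5 genes, *Gap43*, *Mapt*, *Dcx*, *Stmn2* and *Map2*, each overlapped their neighbour between 147.6 and 65.7 RPKM. The neurofilament genes closed that order, with *Nefm* (13.3 RPKM) and *Nefl* (12.2 RPKM) overlapping and *Nefh* alone at 0.583 RPKM. At P70, *Tubb3* led at 170.8 RPKM (SD 6.67), and *Nefl* (140.5 RPKM, SD 10) had reached the range of *Gap43* (144.0 RPKM, SD 12.7), while *Nefm* overlapped *Mapt* and *Mapt* overlapped *Map2* at 86.2, 71.7 and 65.3 RPKM. *Tubb2b* (39.8 RPKM) and *Dcx* (3.20 RPKM) had moved to the eighth and the last place. The levels of *Nefl* and *Nefm* include reads counted for both genes, as described below, and their places in this order were not corrected for that. The 10 members together took 0.780% of all counts at E14 in WT mice (SD 0.102, n = 5), 1.13% (SD 0.0279) at E18, 1.03% (SD 0.108) at P7, and 0.321% (SD 0.0082) and 0.327% (SD 0.0106) at P35 and P70.

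**Figure D1:**
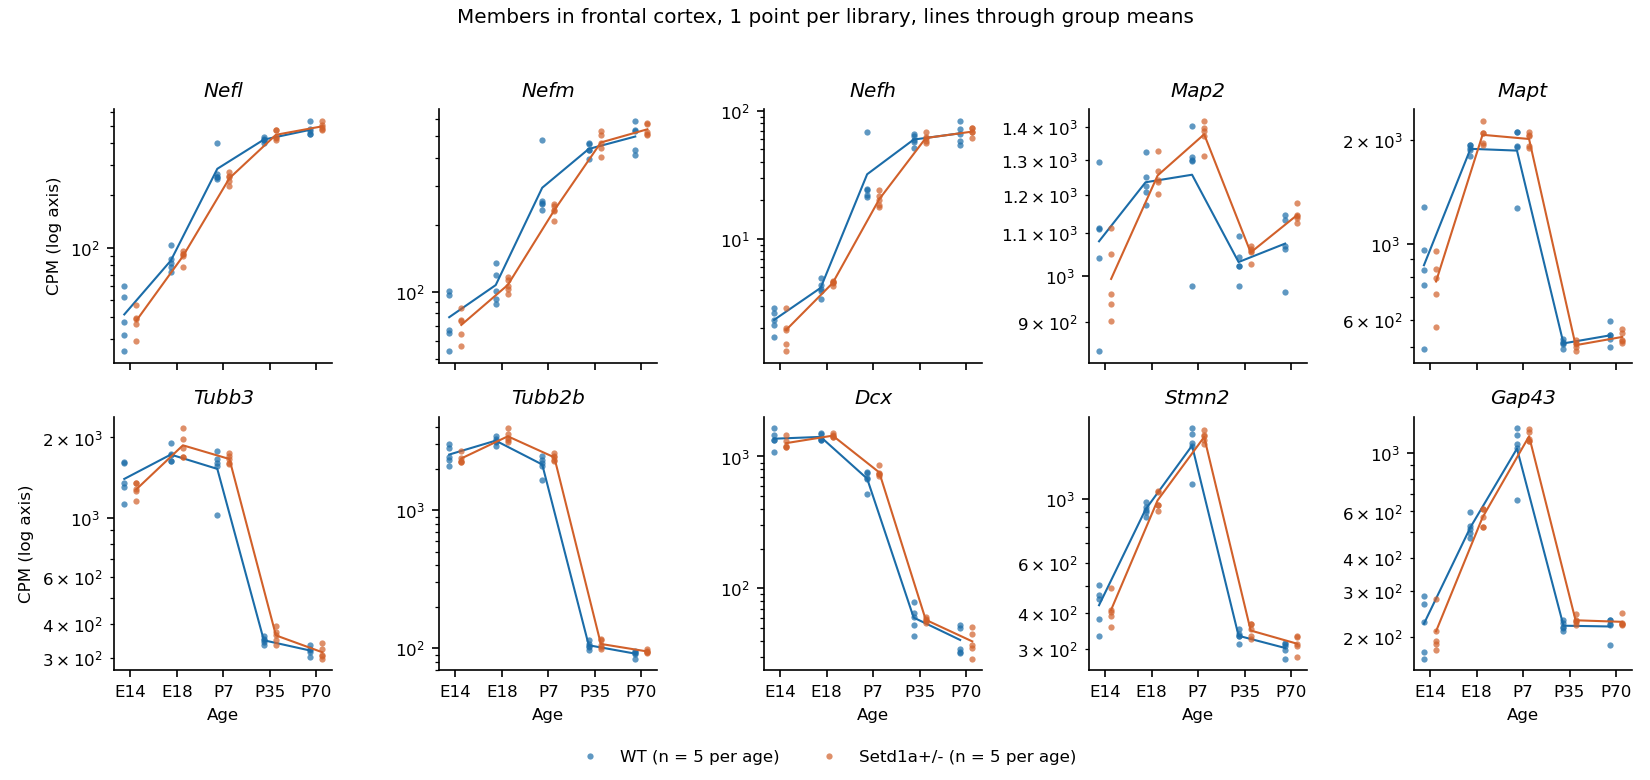
Level of each member in every library (y axis, CPM, log scale) against age (x axis), with WT and Het libraries as separate points and lines through the group means of 5 libraries. The neurofilament genes rise at each age up to P35. *Tubb2b*, *Dcx*, *Tubb3*, *Stmn2* and *Gap43* are more than 4-fold lower at P35 than at P7, and 1 WT library at P7 lies apart from its group in most panels.

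Sequence bears on how well the counts separate some members. *Nefl* (GRCm38 chr14:68083863-68089095, plus strand) and *Nefm* (chr14:68082590-68124846, minus strand) share 1108 exon bases, chr14:68083863-68084970, on opposite strands, which is 32.8% of the annotated exon bases of *Nefl* and 19.2% of those of *Nefm*. Of these shared bases 1008 are coding in *Nefl*, and reads there were counted for both genes without regard to strand. The first 60 coding bases of *Nefl*, chr14:68083963-68084022 on the plus strand, lie inside the shared stretch and are shown with the start codon in capitals, because a read of them adds to both neurofilament genes.
Nefl: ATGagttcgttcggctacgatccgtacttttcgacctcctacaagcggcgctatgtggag

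*Tubb2b* (chr13:34126748-34130466, minus strand) has a near-identical neighbour, *Tubb2a*, with 96.5% identity over the 1338 coding bases, while *Tubb3* (chr8:123411424-123422015, plus strand) is 84.2% identical to it. The beta-tubulins differ most at their C-terminal tails, so the last 60 coding bases, stop codon included, are shown for the 3 genes, with capitals where *Tubb2a* and *Tubb3* differ from *Tubb2b*. They run 5′ to 3′ on the strand of the gene in GRCm38, at chr13:34127471-34127530 for *Tubb2b*, chr13:34074468-34074527 for *Tubb2a* and chr8:123421623-123421682 for *Tubb3*.
Tubb2b: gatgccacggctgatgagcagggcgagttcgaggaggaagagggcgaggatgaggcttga
Tubb2a: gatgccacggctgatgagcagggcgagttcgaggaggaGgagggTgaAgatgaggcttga
Tubb3: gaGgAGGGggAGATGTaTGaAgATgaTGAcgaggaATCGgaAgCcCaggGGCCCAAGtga
*Tubb2a* differs from *Tubb2b* at 3 of these bases and *Tubb3* at 34. Of the 2172 distinct windows of 150 bases, the read length, in the *Tubb2b* transcripts, 408 (18.8%) also occur in transcripts of *Tubb2a* or its pseudogene *Tubb2a-ps2*, and reads that fit several places were not counted. Read pairs were counted, so a mate outside such a window can still place its pair, and where in the gene the *Tubb2b* counts lie was not tested. None of the other 9 members had such a window on the same strand. Only that strand was searched, so the bases that *Nefl* and *Nefm* share on opposite strands are not among them. In the same build *Nefh* lies at chr11:4938754-4948064 (minus strand), *Map2* at chr1:66175273-66442583 (plus), *Mapt* at chr11:104231390-104332090 (plus), *Dcx* at chrX:143855842-143933311 (minus), *Stmn2* at chr3:8509360-8561606 (plus) and *Gap43* at chr16:42248442-42340651 (minus), and their values count reads over all annotated exons.

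Start regions are shown for *Tubb3* and *Dcx*, 2 of the 3 members with a start sequence available. Both fell from P7 to P35, as did 7 of the 10 members in all, *Map2* included. RefSeq start sites in GRCm38.p6 gave a window of 250 bases before the start for 3 of the 10 members (*Map2*, *Tubb3* and *Dcx*), and capitals mark TATAA and GGGCGG on either strand, where TTATAA holds TATAA on both.
Tubb3 chr8:123411303-123411552 plus strand: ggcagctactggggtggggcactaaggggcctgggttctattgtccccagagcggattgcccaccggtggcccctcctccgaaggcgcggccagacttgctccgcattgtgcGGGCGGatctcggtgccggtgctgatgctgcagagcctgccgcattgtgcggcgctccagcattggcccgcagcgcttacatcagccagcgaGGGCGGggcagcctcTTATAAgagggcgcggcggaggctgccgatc
Dcx chrX:143933220-143933469 minus strand: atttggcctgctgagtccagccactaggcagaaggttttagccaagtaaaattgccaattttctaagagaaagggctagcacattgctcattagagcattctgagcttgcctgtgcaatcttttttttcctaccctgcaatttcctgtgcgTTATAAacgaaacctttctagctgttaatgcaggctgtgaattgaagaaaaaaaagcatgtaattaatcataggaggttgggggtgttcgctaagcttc
The *Tubb3* window held 68.0% G and C, 2 copies of GGGCGG and a TATAA match 30 bases before the start. The *Dcx* window shown held 41.6% G and C, no GGGCGG and a TATAA match 98 bases before the start. RefSeq gives *Dcx* another start further into the gene, whose window (chrX:143933125-143933374, minus strand) overlaps the one shown, held 44.8% G and C, no GGGCGG and the same TATAA match further from its start. The window of *Map2* (chr1:66175079-66175328, plus strand) held 81.2% G and C, 5 copies of GGGCGG and no TATAA. Among all 32851 windows of this length the median G and C content was 52.4%, 22.8% held TATAA and 32.7% held GGGCGG on either strand. CAGATG, searched on both strands as an E-box, was in none of these 4 windows and in 14.4% of all windows. First exons of the counted annotation begin before these RefSeq starts, with 129 bases of the *Tubb3* window and 92 of the *Dcx* window shown inside the counted gene. A match describes letters only.

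The neurofilament genes rose at every age step up to P35 in WT and in Het mice. The call of the step from E14 to E18 of *Nefm* in WT mice depended on reads shared with *Nefl*, as given below. *Nefl*, the light chain, had 25.5, 31.5, 37.3, 51.9 and 60.6 CPM in the 5 WT libraries at E14, 72.4, 77.4, 82.1, 86.1 and 103 CPM at E18, and 246, 254, 254, 264 and 399 CPM at P7. At P35 the WT libraries held 401 to 431 CPM and at P70 448 to 530 CPM. No value of 1 age reached into the range of the next in WT mice. *Nefl* rose by 1.03 on the log2 scale from E14 to E18 (SE 0.138, adjusted p = 1.54e-08), by 1.75 from E18 to P7 (SE 0.138) and by 0.56 from P7 to P35 (SE 0.134, adjusted p = 0.000336), and the step from P35 to P70 did not pass the test (0.19, adjusted p = 0.665). Het mice gave 1.23, 1.49, 0.83 and 0.16 for the same steps. In bulk tissue, fewer cells of a type and less RNA per cell cannot be told apart.

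*Nefm*, the medium chain, rose less. Per length it stood close to *Nefl* at E14 in WT mice (means of 13.3 and 12.2 RPKM), but in CPM it began higher: WT libraries held 54.1, 65.2, 67.2, 96.7 and 101 CPM at E14 and 88.1, 92.7, 101, 119 and 135 CPM at E18, and these ranges overlap. At P7 the WT libraries held 233, 249, 249, 257 and 479 CPM, at P35 395 to 467 CPM and at P70 414 to 586 CPM. Between E14 and P70 *Nefm* was 6.49-fold higher in WT mice (log2 fold change 2.70, SE 0.156) and 7.57-fold higher in Het mice (2.92, SE 0.158). *Nefm* and *Nefl* counts share reads, so the count of *Nefm* was recomputed, after the values were seen, with the shared share of *Nefl* taken off. The E14 to E18 step of *Nefm* in WT mice was then 0.33 (adjusted p = 0.0709) in place of 0.48 (adjusted p = 0.0043) and no longer passed the test, that of Het mice was 0.42 (adjusted p = 0.0236), and the E14 to P70 change was 2.44 in WT and 2.68 in Het mice.

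*Nefh*, the heavy chain that joins the filament late in axon maturation, rose most of the 10 members. WT libraries held 1.70, 2.11, 2.32, 2.63 and 2.88 CPM at E14, 3.36, 3.94, 4.07, 4.38 and 4.94 CPM at E18, and 21, 22.1, 24.1, 24.6 and 67.7 CPM at P7. Het libraries held 1.33, 1.52, 1.95, 2.02 and 2.90 CPM at E14, 4.25, 4.51, 4.58, 4.62 and 4.66 CPM at E18, and 17.6, 18.4, 20, 21.7 and 24 CPM at P7. Every E18 library was above every E14 library of its genotype, and every P7 library above every E18 library. At P35 the ranges were 51.1 to 66.2 CPM in WT and 55.7 to 67.7 CPM in Het mice, and at P70 53.6 to 83.2 and 61.6 to 72.8 CPM. From E14 to P70 *Nefh* was 28.7-fold higher in WT (log2 fold change 4.84, SE 0.228) and 35.4-fold higher in Het mice (5.15, SE 0.233). The largest step fell between E18 and P7, at 2.95 in WT (SE 0.208) and 2.17 in Het mice (SE 0.206). Without P7 WT replicate 2 the WT step was 2.46, that of *Nefm* went from 1.453 to 1.198 and that of *Nefl* from 1.75 to 1.59, and all 3 stayed past the test, as did the WT steps from P7 to P35, which went from 0.90 to 1.38 for *Nefh*, 0.58 to 0.83 for *Nefm* and 0.56 to 0.71 for *Nefl*.

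*Map2*, the dendritic microtubule-associated protein gene, varied least between group means. WT group means were 1081, 1235, 1256, 1031 and 1075 CPM from E14 to P70, and Het means 992, 1254, 1376, 1054 and 1147 CPM. It rose by 0.19 on the log2 scale from E14 to E18 in WT (SE 0.0715, adjusted p = 0.0167) and by 0.34 in Het mice (adjusted p = 6.54e-05). The WT rise did not pass without E14 WT replicate 5 (0.11, adjusted p = 0.128) or E18 WT replicate 5 (0.16, adjusted p = 0.0542), nor without the 3 libraries that stand apart (0.11, adjusted p = 0.0848). *Map2* fell from P7 to P35 in WT (log2 fold change -0.29, adjusted p = 0.000529) and Het mice (-0.39). Between E14 and P70 the difference was -0.01 in WT mice (adjusted p = 0.925) and 0.21 in Het mice (adjusted p = 0.00693), the latter 0.07 and not past the test with library size only (adjusted p = 0.273). Whether WT and Het differ in that change is part of the interaction test, which *Map2* did not pass (adjusted p = 0.898).

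*Mapt*, which encodes tau, rose before birth and fell after P7. The WT libraries held 491, 755, 838, 957 and 1280 CPM at E14, 1802, 1869, 1905, 1934 and 1934 CPM at E18, and 1270, 1908, 1926, 2108 and 2119 CPM at P7. At P35 they held 493.5, 510.4, 512.7, 514.5 and 525.5 CPM, and at P70 500 to 593 CPM. All E18 libraries were above all E14 libraries, and all P35 libraries below all P7 libraries, while the P7 and E18 ranges overlapped. *Mapt* rose by 1.13 from E14 to E18 in WT (SE 0.13, adjusted p = 4.18e-10) and 1.42 in Het mice (SE 0.131), and fell from P7 to P35 in WT (-1.87, SE 0.132) and Het mice (-1.998, SE 0.133). By P70 it was 1.60-fold lower than at E14 in WT and 1.45-fold lower in Het mice.

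*Tubb3*, the neuron-specific beta-tubulin gene, stayed within 1028 to 2163 CPM in all libraries of E14, E18 and P7, and within 298 to 393 CPM in all of P35 and P70. It rose by 0.30 from E14 to E18 in WT (SE 0.0879, adjusted p = 0.00256) and 0.55 in Het mice (SE 0.0881). Between E18 and P7 it differed by -0.18 in WT (adjusted p = 0.07) and -0.17 in Het mice (adjusted p = 0.0828), neither past the test. This step was near the threshold. In WT mice it was called lower by limma-voom (-0.20, adjusted p = 0.0462), with library size only (-0.24, adjusted p = 0.00333), and without P7 WT replicate 3 (adjusted p = 0.0203) or 5 (adjusted p = 0.047). In Het mice it was called lower with library size only (-0.21, adjusted p = 0.00889), without the 3 libraries that stand apart (-0.17, adjusted p = 0.00945), and without E18 Het replicate 1 (adjusted p = 0.0434) or 4 (adjusted p = 0.0423). The WT rise from E14 to E18 was 0.195 without the 2 libraries with *Xist* counts, where it did not pass (adjusted p = 0.059), and without all 3 that stand apart, where it passed (adjusted p = 0.00935). From P7 to P35 it fell 4.38-fold in WT (log2 fold change -2.13, SE 0.0917) and 4.57-fold in Het mice (-2.19, SE 0.0919).

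*Tubb2b*, the beta-tubulin gene of developing neurons, gave the members' largest step. The WT libraries held 2110, 2301, 2444, 2813 and 3008 CPM at E14, 2912, 3136, 3176, 3301 and 3464 CPM at E18, and 1671, 2108, 2193, 2300 and 2461 CPM at P7. At P35 they held 97.12, 101.8, 104.6, 106.4 and 115.4 CPM, and at P70 84.1, 90.5, 92.3, 93.7 and 95.9 CPM. No P35 library of either genotype came within 10-fold of a P7 library. The fall from P7 to P35 was 20.4-fold in WT mice (log2 fold change -4.35, SE 0.0914) and 22.5-fold in Het mice (-4.49, SE 0.092). By mean CPM over the 10 libraries of an age, *Tubb2b* stood at place 4 of the 16330 tested genes at E18 and at place 2779 at P70. Its neighbour *Tubb2a* had WT means of 347, 801, 1452, 470 and 390.5 CPM from E14 to P70, highest at P7 where *Tubb2b* was highest at E18.

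*Dcx*, the doublecortin gene, was the member that fell by the most between E14 and P70 and the only member that passed the test between P35 and P70. WT libraries held 1079, 1326, 1339, 1445 and 1634 CPM at E14, 1340, 1341, 1368, 1490 and 1503 CPM at E18, and 523, 678, 683, 750 and 761 CPM at P7. They then held 43.4, 52.2, 60.9, 64.5 and 78.5 CPM at P35, and 32.2, 32.8, 34.73, 50.03 and 52.81 CPM at P70. The E14 and E18 ranges overlapped, those of P7 and P35 lay far below each preceding age, and those of P35 and P70 overlapped. From E18 to P7 *Dcx* fell in WT (log2 fold change -1.05, SE 0.129) and Het mice (-0.93, SE 0.129). Its fall from P7 to P35 was 11.3-fold in WT (-3.50, SE 0.142) and 13.2-fold in Het mice (-3.72, SE 0.144). From P35 to P70 it fell again in WT (-0.56, SE 0.132, adjusted p = 0.0245) and Het mice (-0.54, SE 0.132, adjusted p = 0.0145). Leaving out 1 library at a time kept the call of this fall in 4 of 10 cases in WT mice (adjusted p 0.00496 to 0.116). In Het mice it kept the call in 8 of 10 (adjusted p 0.00201 to 0.0737). The log2 fold change itself stayed between -0.678 and -0.447 in WT and between -0.650 and -0.453 in Het mice.

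The axon growth genes *Stmn2* and *Gap43* rose to a peak at P7. *Stmn2* libraries of WT mice held 335, 383, 450, 464 and 504 CPM at E14, 863, 898, 914, 940 and 976 CPM at E18, and 1125, 1519, 1567, 1682 and 1755 CPM at P7, with no overlap between these ages, and 314 to 353 CPM at P35. *Gap43* libraries held 166, 176, 228, 267 and 288 CPM at E14, 477, 496, 514, 529 and 596 CPM at E18, 662, 1044, 1080, 1173 and 1241 CPM at P7, again with no overlap, and 211 to 232 CPM at P35. In WT mice *Stmn2* rose by 1.10 and 0.74 on the log2 scale over the first 2 steps (SE 0.0856 and 0.0849) and *Gap43* by 1.22 and 0.99 (SE 0.119 for each). From P7 to P35 *Stmn2* fell 4.57-fold in WT and 4.69-fold in Het mice, and *Gap43* fell 4.71-fold and 5.00-fold. *Gap43* at P70 was not distinguished from E14 in WT (-0.04, adjusted p = 0.784) or Het mice (0.12, adjusted p = 0.341), and *Stmn2* was 1.407-fold lower in WT and 1.31-fold lower in Het mice.

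Counted over the members, 9 of 10 rose from E14 to E18 in WT and the same number in Het mice, all but *Dcx*, against 31.8% (WT) and 32% (Het) of all tested genes that rose and 34.1% and 32.5% that fell. From E18 to P7, 5 rose and 2 fell in each genotype, with 33.9% of all genes higher and 33.4% lower in WT, and 32.7% and 35% in Het mice. Without the 3 libraries that stand apart, Het mice also had *Map2* called higher (0.13, adjusted p = 0.0185) and *Tubb3* lower (-0.17, adjusted p = 0.00945) over this step. From P7 to P35, 3 rose, the neurofilament genes, and the other 7 fell in each genotype, against 32.6% higher and 34.3% lower in WT, and 34.5% and 33.3% in Het mice. From P35 to P70, 0 rose and 1 fell in each genotype, against 0.533% and 0.527% in WT, and 1.51% and 1.47% in Het mice. Over the whole span from E14 to P70, WT mice had 3 members higher and 5 lower and Het mice 4 higher and 5 lower, where 42.8% and 42.9% of all genes were higher and lower in WT, and 42.3% and 43% in Het mice. WT and Het steps come from different mice. Age changed with the makeup of the tissue: from E14 to P70 the neuron marker list (7 genes) went from 988.7 to 1495 CPM to 5937 to 6712 CPM in WT libraries, the progenitor list (6 genes) from 968.5 to 1408 CPM to 63.9 to 89.6 CPM, and the oligodendrocyte list (7 genes) from 126 to 165 CPM to 3200 to 3878 CPM, and their part in the members' changes was not tested. Of the neuron list, 5 genes were called higher and 2 lower over this span in each genotype. Without the 2 libraries with *Xist* counts, the WT steps from E14 to E18 of *Map2* (0.11, adjusted p = 0.169) and *Tubb3* (0.195, adjusted p = 0.059) did not pass the test. With the shared share of *Nefl* taken off, the WT step from E14 to E18 of *Nefm* (0.33, adjusted p = 0.0709) did not pass either.

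**Figure D2:**
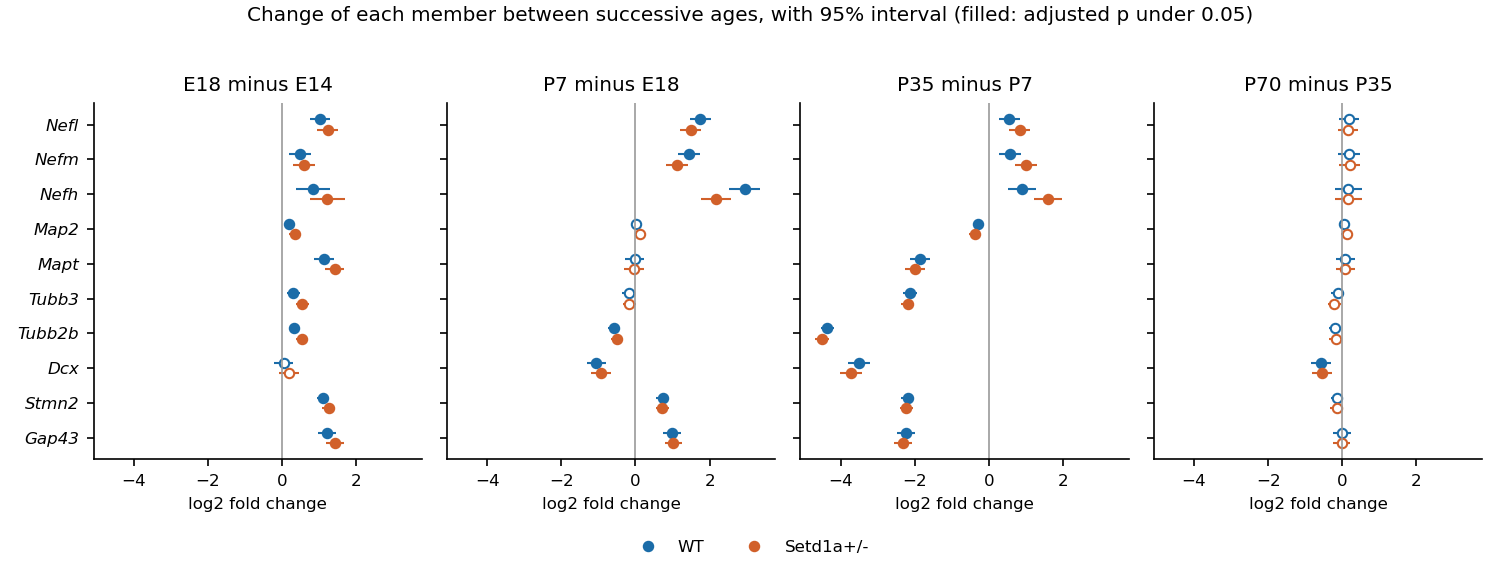
Log2 fold change (x axis) of each member (y axis) with a panel for each step between neighbouring ages, WT and Het in separate colours, with 95% confidence intervals and filled points where the adjusted p is under 0.05. Neurofilament genes stay above 0 up to the step from P7 to P35, where the other 7 members lie below 0, with *Tubb2b* lowest at -4.35 in WT and -4.49 in Het mice.

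Over the 10 group means of log2 CPM the members fell into sets that ran together, given as a description, since the means share their age groups. Among the neurofilament genes Pearson's r was 0.990 to 0.998, among *Tubb3*, *Tubb2b* and *Dcx* it was 0.980 to 0.995, and between *Stmn2* and *Gap43* it was 0.980. *Mapt* ran closest to *Stmn2* (r = 0.955) and *Map2* to *Gap43* (r = 0.920), while *Nefm* and *Dcx* ran against each other (r = -0.912). Of all tested genes, the pattern of *Nefl* was most like that of *Clstn3* (r = 0.9990), *Kcnj6* and *Rab6a*, that of *Nefm* like *Nefh* (0.9982), *Cryab* and *Atp5s*, and that of *Nefh* like *Bcas1* (0.9989), *Fnbp1* and *Flt3*. The genes most like *Mapt* were *Chl1* (0.9984), *Nsg1* and *Ablim3*, and those most like *Map2* were *Wdr47* (0.976), *Cd99l2* and *Tub*. *Tubb3* ran with *Usp22* (0.9998), *Trim67* and *Gm8281*, *Tubb2b* with *Ybx1* (0.9992), *Idh1* and *Sema4g*, and *Dcx* with *Bax* (0.9992), *Cd24a* and *Gm45808*. For *Stmn2* they were *Sdc3* (0.9966), *Cdc42* and *Azin1*, and for *Gap43* *Cpne2* (0.9979), *Map6* and *Gtf2h5*.

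Ratios of RPKM between members of 1 library cancel its scaling. The heavy to light neurofilament ratio, *Nefh* to *Nefl*, was 0.0499 (SD 0.00929, n = 5) at E14 in WT mice, 0.0421 at E18, 0.0897 at P7, 0.121 at P35 and 0.118 (SD 0.0125) at P70. In the opposite direction, *Nefm* to *Nefl* went from 1.11 (SD 0.111) at E14 to 0.741 at E18 and 0.594 at P7, and then stayed at 0.614 and 0.611. Reads over the bases that *Nefl* and *Nefm* share enter both counts, and the ratios to *Nefl* were not corrected for them. The tubulin ratio *Tubb3* to *Tubb2b* was 0.678, 0.663 and 0.867 at the first 3 ages and 4.09 (SD 0.267) and 4.30 (SD 0.213) at P35 and P70, so the more abundant of the 2 changed between P7 and P35. *Mapt* to *Map2* was 1.71 (SD 0.333) at E14, 3.35 (SD 0.149) at E18, 3.23 (SD 0.262) at P7 and 1.08 (SD 0.0316) at P35. *Stmn2* to *Gap43* moved least, from 0.526 (SD 0.0504) at E14 to 0.379 (SD 0.0448) at P70. In Het mice all 25 ratio and age pairs were compared with WT by a two-sided exact permutation test of 5 against 5 libraries, whose smallest possible p is 0.00794, and 0 of 25 passed after adjustment over the 25, which a single ratio could not do even at that smallest p. The smallest unadjusted values were p = 0.0159 for *Nefm* to *Nefl* at P7 (log2 difference Het minus WT -0.12, adjusted p = 0.397, exact permutation test) and p = 0.0317 for *Mapt* to *Map2* at P70 (-0.11, adjusted p = 0.397, exact permutation test). Leaving out 1 library at a time moved the P7 difference of *Nefm* to *Nefl* between -0.148 and -0.062, the latter without WT replicate 2.

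**Figure D3:**
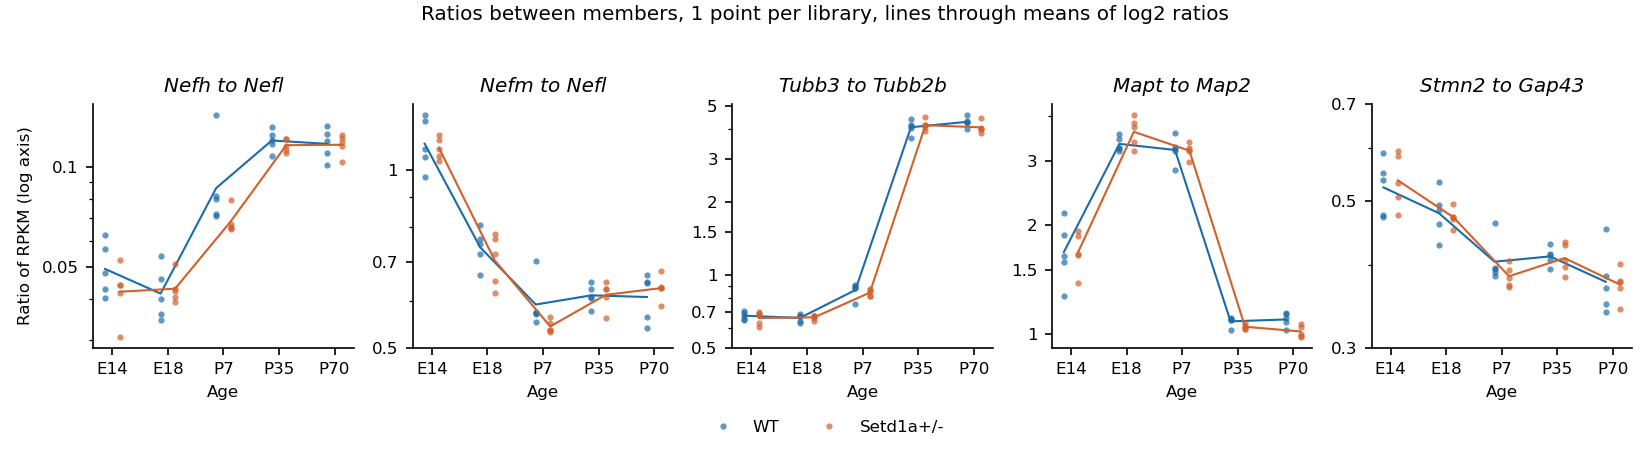
Ratios of RPKM between pairs of members in every library (y axis, log scale) against age (x axis), WT and Het as separate points, with lines through the means of the log2 ratios. *Tubb3* to *Tubb2b* lies below 1 up to P7 and above 3 from P35 on, and *Mapt* to *Map2* is highest at E18 and P7.

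Over all libraries, no member passed the test in any genotype comparison. With age as a covariate over the 50 libraries, 0 of 10 members passed, where 4.43% of all tested genes did, and the differences ran from -0.14 (*Nefh*, SE 0.0958, adjusted p = 0.571) to 0.06 (*Gap43*, SE 0.052, adjusted p = 0.673). Without the 3 libraries that stand apart they ran from -0.05 (*Nefh*) to 0.03 (*Tubb2b*), with *Gap43* at 0.02, and 0 of 10 passed. The 95% intervals of *Map2* (-0.035 to 0.098), *Tubb3* (-0.051 to 0.110), *Tubb2b* (-0.020 to 0.127) and *Stmn2* (-0.022 to 0.127) reach no further than 0.13 from 0 on the log2 scale, and that of *Nefh* (-0.330 to 0.055) was the widest. The test of whether the genotype difference changes with age gave 0 of 10 members and 0% of all genes by edgeR, with 1098 genes at an unadjusted p under 0.05, and the lowest value among the members was that of *Nefh* (adjusted p = 0.689). At single ages 0 of 10 members passed, against 0.129% of all genes at E14 and 0.11% at E18 before birth, and 0.735% at P7, 0% at P35 and 0.233% at P70 after it. The count of 0 genes at P35 by edgeR stands beside 550 at an unadjusted p under 0.05, 11 called by DESeq2 and 0 by limma-voom.

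**Figure D4:**
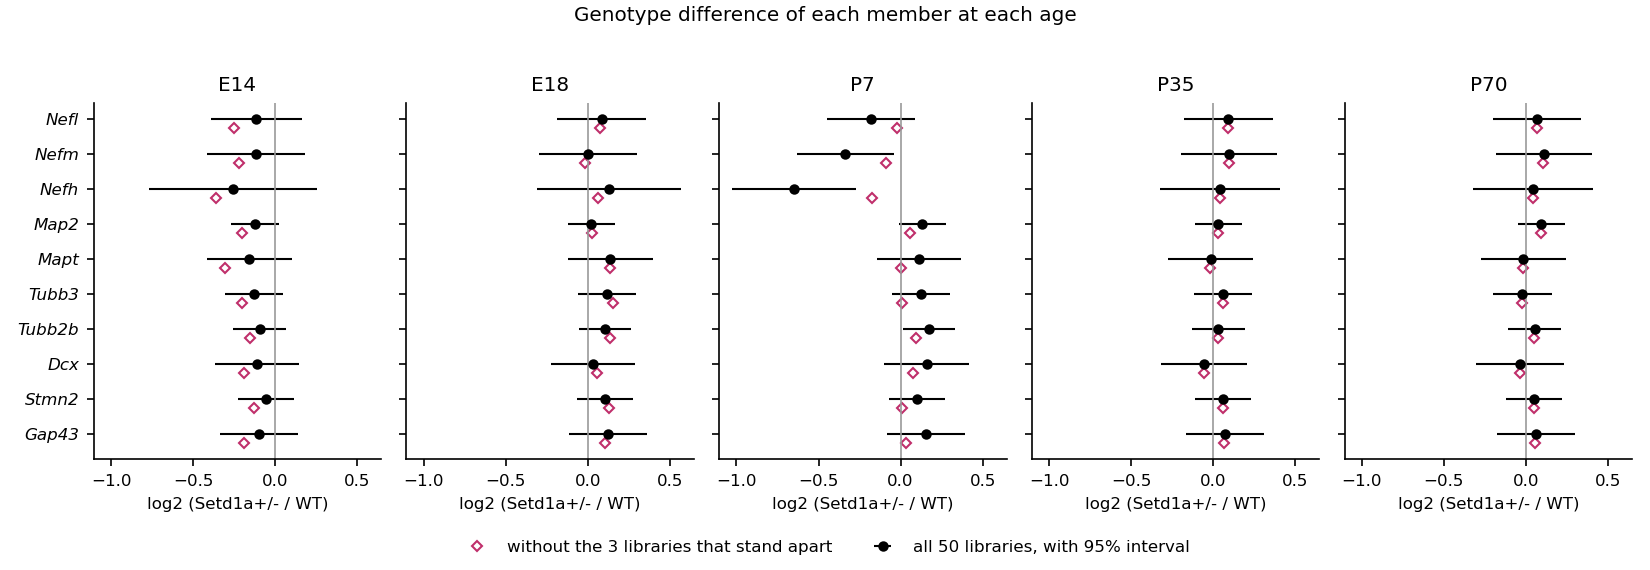
Log2 fold change of Het against WT (x axis) of each member (y axis), with a panel for each age: black points with 95% confidence intervals for all libraries, open diamonds without the 3 libraries that stand apart. The black points of all 10 lie below 0 at E14 and above 0 at E18, and *Nefh* at P7 is the lowest value at -0.65.

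At E14 all 10 members lay below 0 in Het mice, with a median of -0.12 and none past the test, and at E18 all 10 lay above 0, with a median of 0.11. The shared sign at E14 did not hold without every library: 3 members lay above 0 without WT replicate 2 and 2 without WT replicate 1. At E18 9 or 10 lay above 0 with any 1 library of that age left out. Over all tested genes 38.6% lay above 0 at E14 and 55.7% at E18, and the members run together within a library, so the 10 signs are not 10 separate observations. At E14 the differences ran from -0.26 (*Nefh*, SE 0.253) to -0.05 (*Stmn2*, SE 0.0847), with the lowest adjusted p at 0.544 (*Map2*, -0.12). WT replicate 5 of that age, a library with *Xist* counts, had the lowest WT value of every member, for example 491 CPM of *Mapt* against 755 to 1280 CPM in the other WT and 570 to 952 CPM in the Het libraries. It also had the lowest neuron marker sum (988.7 CPM, other WT libraries at least 1206 CPM, Het 1053 to 1320 CPM) and the highest progenitor sum of its group (1408 CPM). Without the 3 libraries that stand apart, a setting chosen after the data were seen, *Map2* (-0.20, adjusted p = 0.0225), *Mapt* (-0.31, adjusted p = 0.0392) and *Tubb3* (-0.20, adjusted p = 0.0425) were lower in Het mice at E14, 3 of 10 members against 7.13% of all genes. Over all libraries their differences were -0.12, -0.16 and -0.13. Without the 2 libraries with *Xist* counts the differences of *Map2*, *Mapt* and *Tubb3* were again -0.20, -0.31 and -0.20 but no member passed (lowest adjusted p 0.062), nor did one without WT replicate 5 alone (0.0628). The larger differences thus came with leaving out WT replicate 5, and the 3 calls with leaving out, in addition, a P7 library that enters the E14 test only through the shared spread. With E14 Het replicate 2 left out as well, the differences were -0.19, -0.34 and -0.19, no member passed (lowest adjusted p 0.0766), and the genes called at E14 went from 1165 to 123. Without WT replicate 2 the E14 difference of *Mapt* was 0.03 in place of -0.16.

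Values for markers of vessels and choroid plexus stand beside these, and none of them passed the test at E14 or E18. The 4 endothelial genes (*Cldn5*, *Pecam1*, *Flt1*, *Slc2a1*) summed to 138.9 to 188.2 CPM in WT and 135 to 549.2 CPM in Het libraries at E14, the highest in Het replicate 2, with a median log2 difference of 0.67 and 0 of 4 past the test (lowest adjusted p 0.117). At E18 they summed to 178.8 to 359 CPM in WT and 163.9 to 204.8 CPM in Het libraries, with a median of -0.46 and 0 of 4 past the test (lowest adjusted p 0.204). The 4 choroid plexus genes summed at E14 to 0.587 to 404.2 CPM in WT and 1.85 to 461.4 CPM in Het libraries. Their median log2 difference at E14 was 0.06, with 0 of 4 past the test (lowest adjusted p 0.822). At E18 they summed to 4.94 to 231.5 CPM in WT and 1.90 to 5.05 CPM in Het libraries, with a median of -3.88 and 0 of 4 past the test (lowest adjusted p 0.0833). The part of progenitor, neuron, vessel and choroid plexus content in the members' differences was not tested.

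At E18 the WT and Het libraries did not overlap for *Mapt*, as in no other pair of member and age. WT libraries held 1802, 1869, 1905, 1934 and 1934 CPM and Het libraries 1935, 1959, 2096, 2107 and 2278 CPM. How many of all tested genes lack overlap was not counted, so this is a description only. The highest WT and the lowest Het library were next to each other, and the difference of 0.14 (SE 0.128, adjusted p = 0.732) did not pass the test. *Tubb3* at this age had WT values of 1631, 1637, 1723, 1736 and 1905 CPM and Het values of 1690, 1691, 1824, 1981 and 2163 CPM, which overlap (0.12, adjusted p = 0.662). Without the 3 libraries that stand apart 9 of 10 members still lay above 0 at E18 and none passed.

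At P7 the lowest adjusted p of any member was that of *Nefh*, at -0.65 in Het mice (SE 0.186, 95% interval -1.03 to -0.27, adjusted p = 0.0997). *Nefm* (-0.34, adjusted p = 0.443) and *Tubb2b* (0.17, adjusted p = 0.492) followed. The *Nefh* difference rested on WT replicate 2. That library held 67.7 CPM of *Nefh*, the other 4 WT libraries 21 to 24.6 CPM and the Het libraries 17.6 to 24 CPM. It also held 1.94 times the mean *Nefm* and 1.57 times the mean *Nefl* of the other 4, and 0.583 (*Gap43*) to 0.738 (*Tubb2b*) times their mean for the other 7 members. Without it *Nefh* differed by -0.17, *Nefm* by -0.09, *Nefl* by -0.02 and *Tubb2b* by 0.10, each with an adjusted p of 1, and the genes called at P7 went from 120 to 7 of all tested genes. With it in place but WT replicate 1, 3 or 5 left out, *Nefh* was called lower in Het mice (adjusted p 0.0488, 0.0305 and 0.0268).

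The same library differed in its regional markers. It held 531 CPM of the 4 cortical neuron markers where all other P7 libraries held 906.5 to 1066 CPM, and 617 CPM of the choroid plexus list (*Ttr*, *Folr1*, *Kl*, *Clic6*) where they held at most 3.4 CPM. Its oligodendrocyte list summed to 1590 CPM against 399 to 458 CPM, its thalamus list to 142 CPM against at most 30.4 CPM, and its hindbrain and spinal cord Hox list to 9.05 CPM against at most 0.39 CPM. Its neuron list was lower, at 2312 CPM against 2718 to 2979 CPM, and its progenitor list higher, at 364.7 CPM against 119.1 to 183.7 CPM. The whole frontal cortex list (6 genes) summed to 713.5 to 1513 CPM in P7 WT libraries (median 1451 CPM). In P7 Het libraries that list summed to 1352 to 1530 CPM. Marker genes called lower in Het mice at P7 over all 10 libraries were *Mbp* and *Mag* of oligodendrocytes, *Pvalb*, *Ttr* and *Tcf7l2*. The part of these other tissues in the members' values of that library was not tested.

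**Figure D5:**
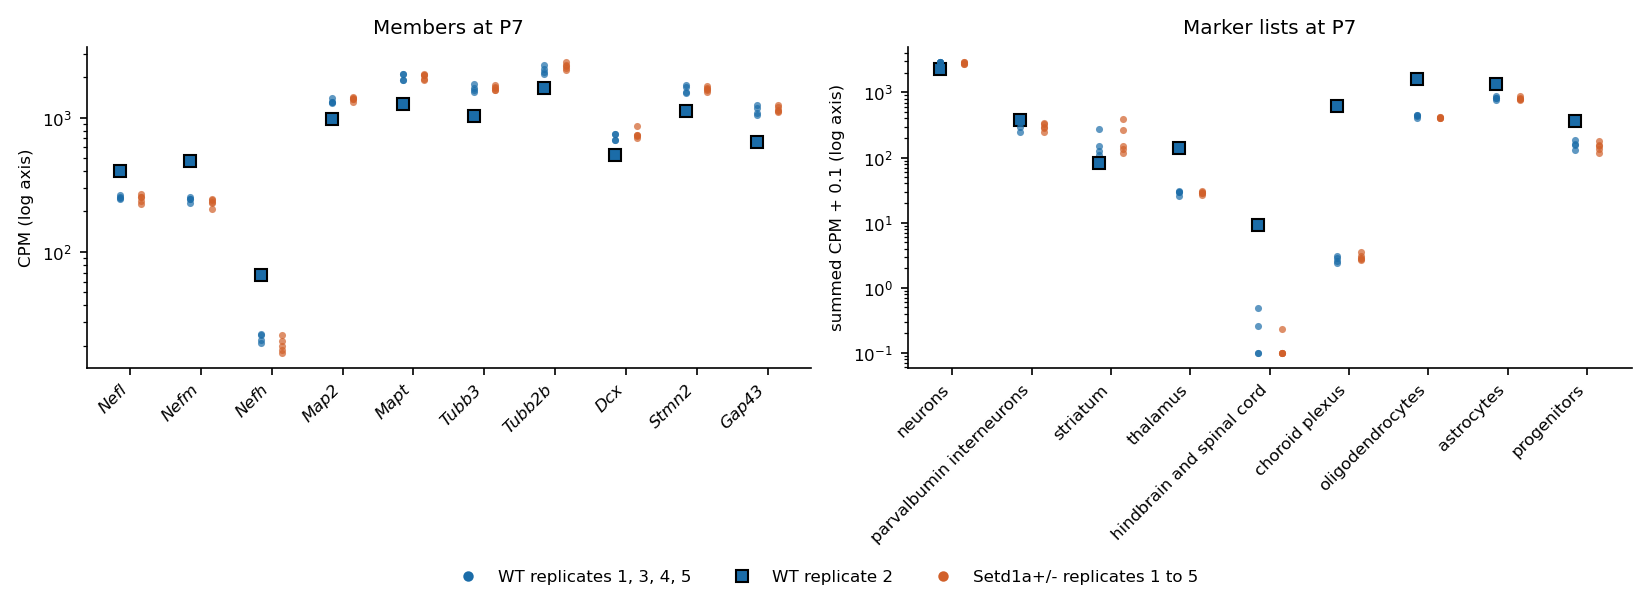
Left, level of each member in the 10 libraries of P7 (y axis, CPM, log scale), and right, summed level of the marker lists named on the x axis (y axis, summed CPM plus 0.1, log scale), with a square for WT replicate 2 and dots for the other WT and the Het libraries. The square lies above all dots for *Nefl*, *Nefm* and *Nefh* and below all dots for the other 7 members, and it lies above them for the choroid plexus list (617 against at most 3.4 CPM).

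At P35 and P70 the WT and Het ranges overlapped for every member, again with no count over all tested genes. Differences ran from -0.06 (*Dcx*) to 0.10 (*Nefm*) at P35 and from -0.04 (*Dcx*) to 0.11 (*Nefm*) at P70, all with an adjusted p of 1. *Nefl* at P70, for example, had 448, 448, 468, 480 and 530 CPM in WT and 473, 483, 494, 503 and 534 CPM in Het mice. The intervals of *Map2* at P70 (-0.051 to 0.237) and *Tubb2b* (-0.110 to 0.215) leave room for a rise of at most 0.24 on the log2 scale, and those of *Nefh* (-0.321 to 0.410) for more.

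Beyond the members, 109 other genes of the cytoskeleton and axon were followed in 8 lists, and all were tested. With age as a covariate 2 of the 109 differed between genotypes, against the 4.43% of all tested genes, and each was lower in Het mice: *Tubg1* (-0.11, SE 0.0226, adjusted p = 0.000944) and *Tubg2* (-0.19, SE 0.0438, adjusted p = 0.00356), which encode the gamma-tubulins that nucleate microtubules. At single ages 0 of 109 passed over all libraries. Without the 3 libraries that stand apart, 23 of 109 passed at E14, where 7.13% of all tested genes did, and 0 at E18 and P7. The E14 count was 7 without E14 WT replicate 5 alone and 9 without the 2 libraries with *Xist* counts, and 2 with E14 Het replicate 2 left out beside the 3, so the count of 23 rests on which libraries are left out.

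From E14 to P70 in WT mice, 48 of the 109 rose and 49 fell, where 42.8% and 42.9% of all tested genes did, with a median log2 change of -0.07 against -0.002 over all tested genes, and in Het mice 52 rose and 46 fell, where 42.3% and 43% of all tested genes did. The counts by list are a description, with no test of a list against other genes. Among 6 intermediate filament genes of neurons and glia 2 rose and 3 fell, with *Gfap* of astrocytes highest (7.54) and *Nes* of progenitors lowest (-4.76). Of 14 other tubulin genes 5 rose and 7 fell, *Tuba8* (7.24) and *Tuba4a* (5.11) most upward and *Tuba1c* (-3.58) and *Tuba1a* (-2.79) most downward. Among 23 other microtubule-associated protein genes 11 rose, *Map6d1* (4.60) and *Map7* (4.05) most, and 9 fell, *Dclk2* (-2.50) and *Mapre1* (-1.77) most. The 3 other stathmin genes split, with *Stmn3* (0.87) and *Stmn4* (0.30) higher and *Stmn1* (-1.52), which is widely expressed in dividing cells, lower.

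Of 20 growth cone genes 15 fell over the same span, in which 42.9% of all tested genes fell, with *Dpysl3* (-5.11) and *Dpysl5* (-4.47), collapsin response mediators of growing axons, lowest, and 5 rose, *Cap2* (3.76) and *Nrn1* (1.94) most. Of 15 neuronal motor genes 11 rose, led by the kinesin gene *Kif5a* (3.17), whose protein carries neurofilaments along axons, and *Klc2* (1.66), while *Kif21b* (-2.81) and the dynein heavy chain gene *Dync1h1* (-0.45) fell. All 4 called genes of the 6 ankyrin and spectrin genes rose, *Sptbn4* (2.70) of the axon initial segment most. Among 22 genes of tau kinases and tubulin-modifying enzymes 8 rose and 12 fell, from *Cdk5r2* (3.95) and *Ttll7* (3.60) to *Vash2* (-5.17) and *Vash1* (-2.43), tubulin carboxypeptidases. Progenitor and oligodendrocyte markers moved over the same span by the values given with the members, and their part in these counts was not tested.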

How the data were processed

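The authors trimmed reads with Trimmomatic, checked them with FastQC, aligned them to GRCm38 with STAR and counted them with featureCounts. Per the file headers, the deposited values are raw counts per gene (featureCounts 1.4.6-p2, Ensembl release 102), with read pairs counted for every gene they overlap, without strand and without multi-mapped reads. Protein-coding genes kept by filterByExpr of edgeR (a minimum count of 10 in at least 5 libraries) were scaled by TMM and tested with the quasi-likelihood test of edgeR 4.0.16 (R 4.3.3) on all 50 libraries, with Benjamini-Hochberg adjustment over the 16330 genes of a comparison and a threshold of 0.05. Genotype was tested with age as a covariate, at each age and as an interaction, and age within each genotype. Scripts were tested on simulated data. The members and lists were chosen with earlier results of these data known. All members are named, and of each list the genes called between genotypes and the 2 that rose and 2 that fell most from E14 to P70 in WT mice. Gene-level RPKM used the exon lengths given with the deposited counts, and transcript sequences came from GENCODE vM21. Alternatives were limma-voom (limma 3.58.1), DESeq2 1.42.0 and its size factors, library size only, at least 10 CPM in 5 libraries, no filter, RNA integrity as a covariate, a replicate block, an adjusted p under 0.01, only the 10 libraries of an age, medians, ratios of RPKM plus 1, leaving out the 2 libraries with *Xist* counts, and each library left out. Added after the values were seen were the fits without the 3 libraries that stand apart, or without these and E14 Het replicate 2, and *Nefm* less the shared counts of *Nefl*. A few genes that the rule or the marker lists include are not reported here, and the 4 cortical neuron markers were summed without the rest of their list, a choice made after the values were seen.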

Additional observations from a re-analysis of the deposited data

Results flagged for a closer look

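In each group of 5 libraries, the gap between the most extreme library and its nearest neighbour was divided by the range of the group and set against Dixon's critical value of 0.71, which chance passes in about 1 in 20 groups. Of the 100 groups (10 members by 10 groups), 10 passed. Among them 7 were P7 WT libraries with replicate 2 as the extreme: *Nefl* (0.857), *Nefm* (0.863) and *Nefh* (0.867) with replicate 2 highest, and *Map2* (0.776), *Mapt* (0.796), *Tubb3* (0.764) and *Gap43* (0.725) with replicate 2 lowest. The other 3 were *Dcx* in P7 Het mice (0.762), where replicate 5 held 860.8 CPM and the rest 710.4 to 744.0 CPM, *Gap43* in P70 Het mice (0.797), where replicate 1 held 245.7 CPM and the rest 221.7 to 226.4 CPM, and *Gap43* in P70 WT mice (0.808), where replicate 3 held 185.7 CPM and the rest 223.1 to 233.1 CPM.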

How the results depend on the processing

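The count of members called stayed at 0 of 10 for each genotype comparison under the alternatives run, with these exceptions. At E14 it was 3 without the 3 libraries that stand apart (0 with E14 Het replicate 2 left out as well), and at P7 it ran from 0 to 1 with 1 library left out. From P35 to P70 the count was 0 at an adjusted p under 0.01 in WT and in Het mice, ran from 0 to 1 in each with 1 library left out, and was 2 in Het mice without the 3 libraries (*Dcx* and *Tubb3*). The cause was not tested.

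Leaving-out of 1 library aside, of 1200 values of an age change under an alternative 1164 kept their direction and call, 9 lost a call, 9 gained one and 18 turned direction, none of them called. Of 780 genotype values, 756 kept their direction and call, 3 gained a call and 21 turned direction. None of the 21 was called (lowest adjusted p 0.782), and the largest was 0.0966 in size. The turns in age changes were these. From E14 to E18 in WT mice, *Dcx* was -0.05347 without the 2 libraries with *Xist* counts and -0.05348 without all 3, and -0.0299 to 0.1172 with 1 library left out. From E18 to P7 in WT mice, *Map2* was -0.0346 with library size only and -0.0184 to 0.0963 with 1 library left out. *Mapt* over that step was 0.0140 with DESeq2 and with its size factors, 0.0158 at 10 CPM, 0.0889 without the 3 libraries and -0.0669 to 0.0873 with 1 left out, and in Het mice it was 0.00153 at 10 CPM and 0.0355 with RNA integrity as a covariate. From E14 to P70 in WT mice, *Map2* was 0.00295 with limma-voom, 0.03805 with DESeq2, 0.03804 with its size factors, 0.0877 at 10 CPM, 0.00185 with RNA integrity and -0.0910 to 0.0596 with 1 left out. *Gap43* was 0.01067 with DESeq2, 0.01077 with its size factors, 0.0624 at 10 CPM and -0.133 to 0.0638 with 1 left out, and in Het mice -0.0226 with library size only. From P35 to P70 *Gap43* ran from -0.0326 to 0.0446 in WT and from -0.0473 to 0.00161 in Het mice with 1 left out. The E14 genotype difference of *Mapt* ran from -0.306 to 0.0275 with 1 left out.

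Samples of equal replicate number deviated together (correlation over 0.1) in 9 of 25 pairs, so the numbers are not known to pair mice. With a replicate block the members called were 0 in every genotype comparison, and it changed no count of members, while the genes called at P7 went from 120 to 20. Counting error is larger for *Nefh*, with 57 counts in its lowest library, than for the other members, and 5 mice per group limit what the genotype tests can show.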
